A study of Mus musculus with 28 samples.

Results

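The constitutive proteasome subunits were taken as every mouse gene symbol that begins with Psm, a letter from a to g and a digit, leaving out the immunoproteasome subunits Psmb8, Psmb9 and Psmb10 and the pseudogenes. This gave 47 genes, each of which was present in both sets of samples, out of 39917 gene symbols in all (35928 in set 2 and 24845 in set 1). They were divided into 14 core genes (7 of the alpha ring and 7 of the beta ring), 17 cap genes (6 base ATPases, 3 of the base and hinge and 8 of the lid) and 16 others. The others are 3 cap assembly chaperones, 4 core assembly chaperones, 4 activators, the regulator Psmf1, the germ-cell and thymus forms Psma8 and Psmb11, and Psme2b and Psmc3ip, which the symbols alone brought in. Psme2b is named as a second form of the activator gene Psme2, and Psmc3ip encodes a cofactor of meiotic recombination.

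RNA sequencing was performed on livers, pancreases and lungs of adult mice that carry a human APOBEC3B (A3B) cDNA fused to turbo GFP. A3B is a DNA cytosine deaminase. The transgene is tetracycline-responsive, lies downstream of ColA1 and is switched on by doxycycline in the food (625 ppm) through an rtTA3 transactivator that the CAGs promoter drives in many cell types, so that expression is not limited to one of them. The titles mark each sample as A3B-expressing or control and give no allele. The genotype tags give both alleles for the A3B samples, except for 2 pancreases named below.

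Set 2 held 6 A3B livers and 2 control livers, and 6 A3B pancreases and 2 control pancreases. All of these mice are labelled as given doxycycline for 10 days. The study's list of mice gives the controls, mice 45 and 168, the A3B transgene without rtTA3 and the same 10 days, yet a legend in the study describes both controls as not given doxycycline, so that a difference in treatment cannot be told apart from that in genotype. Set 1 held 3 A3B livers (mice 23 and 28 at 14 days and mouse 70 at 10 days) and 3 control livers (mice 11, 91 and 92), with 3 A3B lungs (mice 69, 70 and 74 at 10 days) and 3 control lungs (mice 87, 88 and 91). The controls of set 1 are labelled 15 days, yet the study's list of mice gives no doxycycline for mice 11, 88, 91 and 92, of which mouse 11 carried both alleles and the others the A3B allele alone, and gives rtTA3 alone with a shorter doxycycline course for mouse 87. The genotype tags of 4 pancreases go against their titles (A3B mice 44 and 137, control mice 45 and 168), and the titles were followed. A3B mice were taken at a humane end point. The A3B transgene itself was not analysed here. Livers and pancreases came from the same animals for mice 44, 49, 125, 137, 153, 45 and 168, and liver and lung came from the same animal for A3B mouse 70 and control mouse 91.

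Set 2 libraries held 6.52e+07 to 9.88e+07 estimated counts in A3B livers, 1.05e+08 and 1.19e+08 in control livers, 7.48e+07 to 8.76e+07 in A3B pancreases and 8.73e+07 and 9.56e+07 in control pancreases. The set 1 values are TPM (transcript abundance scaled to a fixed total per library), so the depth behind them is unknown. Their headers name de-duplicated alignments, what that did to the levels was not tested, and levels are not compared between sets. Acinar cell genes were abundant in every pancreas (64354 to 244587 TPM summed over 8 genes), hepatocyte genes in every liver (36272 to 143221 TPM in set 2 and 3155 to 8638 TPM in set 1) and alveolar genes in every lung (10237 to 11623 TPM). In set 2 the values printed for single genes are CPM (counts scaled to a fixed library total), adjusted by edgeR's TMM factors, which were 0.21 and 0.44 in the control pancreases against 1.3 to 1.79 in the A3B pancreases. Control values of set 2 are given in the order mouse 45 and mouse 168, and A3B values as the lowest, the highest and the median of 6. Changes are log2 fold changes of A3B over control with their standard error, and a gene is called where its Benjamini-Hochberg adjusted p over all genes tested is under 0.05.

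The proteasome degrades proteins that carry ubiquitin chains. Its core is a barrel of alpha rings, which gate entry, around beta rings, some of whose subunits hold the peptide-cutting sites, and its cap holds ATPases that unfold the substrate, receptors that bind ubiquitin, and a lid that removes ubiquitin. Dedicated chaperones assemble the core and the base of the cap, and alternative activators encoded by the Psme genes can take the place of the cap. The transcription factor Nfe2l1 is known to raise proteasome genes together when the enzyme is blocked. Acinar cells and hepatocytes both make much secreted protein and depend on the proteasome to clear what misfolds in the endoplasmic reticulum.

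The question in the pancreas was whether proteasome genes differ between A3B and control mice, and whether core and cap genes move alike. In the A3B pancreases 17 of the 47 genes rose and 3 fell, while 17% of the 19142 genes tested were called higher and 14.9% lower. Of the 17 cap genes, 11 rose and 1 fell, with a median log2 fold change of 1.11, whereas 3 of the 14 core genes rose and none fell, with a median of 0.36 against 0.09 over all genes tested. The scaffold gene Psmd1, the lid gene Psmd11 and the base ATPase Psmc5 were the cap genes with the smallest p, the core chaperones Psmg1 and Psmg3 fell, and so did the lid gene Psmd6. At an unadjusted p under 0.05, 21 of the 47 were higher and 5 lower, where 23.6% and 19.8% of all genes were.

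**Figure D1:**
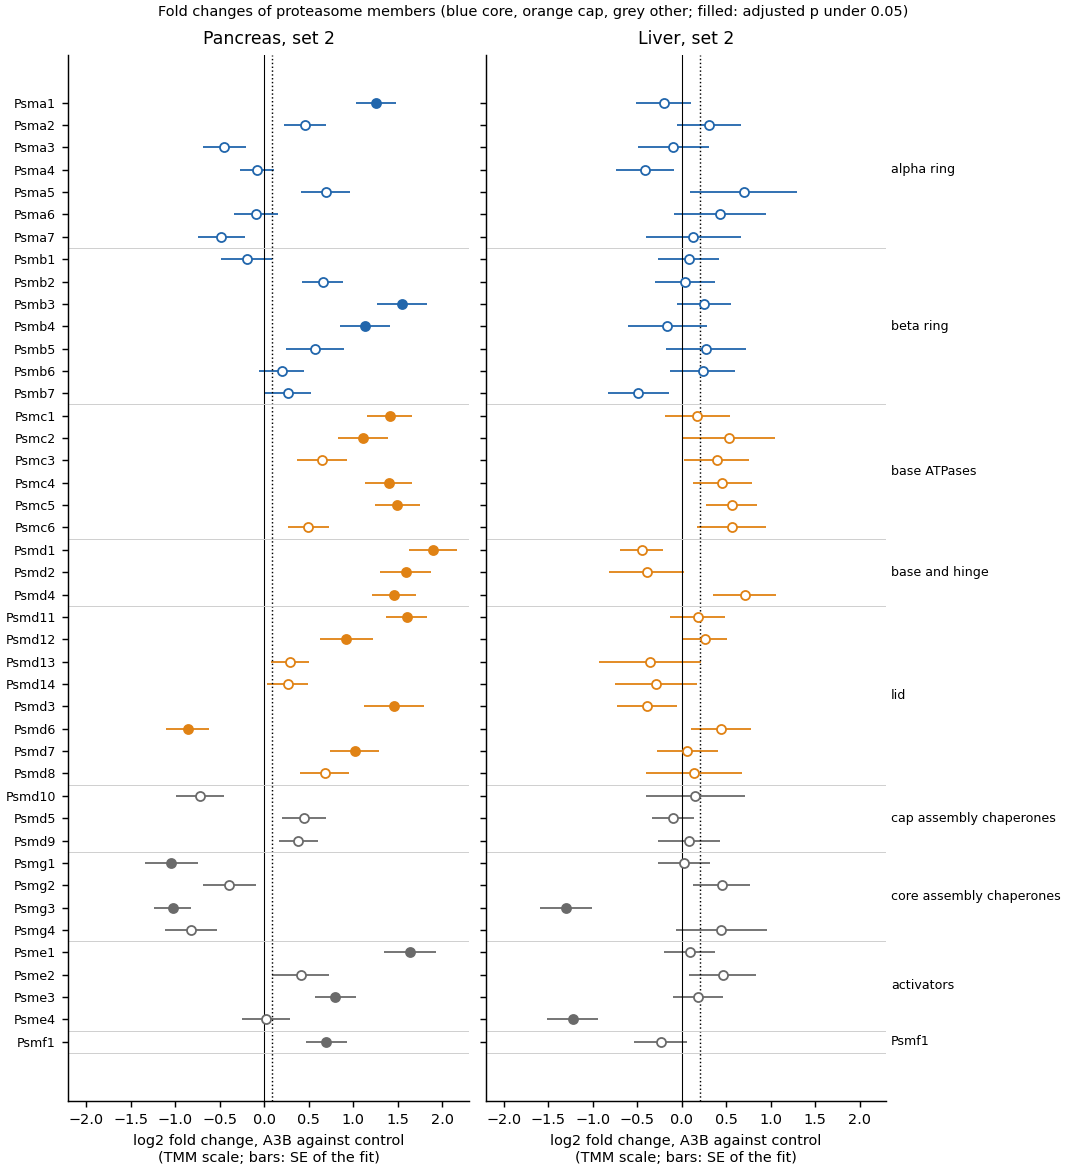
Log2 fold changes with standard errors of 43 of the 47 genes (Psma8, Psmb11, Psme2b and Psmc3ip are left out) in pancreas and liver of set 2, on the TMM scale, with core genes in blue, cap genes in orange and the others in grey. Filled points have an edgeR adjusted p under 0.05 and the dotted line is the median of all genes tested, and most filled points are cap genes in the pancreas, while the pancreas falls of Psmd6, Psmg1 and Psmg3, and the value of Psmd10, turn positive when counts are scaled by their totals.

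In the alpha ring, Psma1 was the gene that rose, and the median of the 7 alpha genes was -0.08. Psma1 stood at 31.1 and 36.9 CPM in the control pancreases and at 62.3 to 89.4 (median 83.7) CPM in the A3B pancreases (1.25 ± 0.22, edgeR adjusted p = 0.0023). Every A3B pancreas was above both controls for Psma1, the lowest being mouse 125. Psma5 stood at 118 and 104 CPM in controls and at 126 to 218 (median 190.3) CPM in A3B pancreases, without passing the test (0.69 ± 0.28, edgeR adjusted p = 0.0833). The groups did not overlap for Psma5 either. The remaining alpha genes ranged from -0.49 for Psma7 to 0.46 for Psma2, and no one of them was called.

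In the beta ring, 2 of 7 genes rose and the median was 0.57. Psmb3, a structural beta subunit without a cutting site, stood at 39.3 and 32.6 CPM in controls and at 75.2 to 141 (median 108) CPM in A3B pancreases (1.55 ± 0.28, edgeR adjusted p = 0.00254). Psmb4, also a structural subunit, stood at 106 and 78.9 CPM and 154 to 265 (median 193) CPM (1.13 ± 0.28, edgeR adjusted p = 0.0122). For both genes all 6 A3B pancreases were above both controls, although the call on Psmb4 is lost without control mouse 168. The subunits that carry the active sites were not called, with 0.57 for Psmb5 (chymotrypsin-like), 0.20 for Psmb6 (caspase-like) and 0.27 for Psmb7 (trypsin-like).

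The base ATPases were all positive, with a median of 1.26, and 4 of 6 rose. Psmc5 stood at 35.2 and 26.9 CPM in controls and at 70.6 to 104 (median 84.1) CPM in A3B pancreases (1.5 ± 0.25, edgeR adjusted p = 0.0017). Psmc1 stood at 59.8 and 42.5 CPM and 108 to 156 (median 136) CPM (1.41 ± 0.25, edgeR adjusted p = 0.0026). In both, the lowest A3B pancreas was clear of the highest control. Psmc4 rose by 1.4 and Psmc2 by 1.11, the latter not without control mouse 45, and Psmc3 (0.65) and Psmc6 (0.49) were not called.

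All 3 base and hinge genes rose, with a median of 1.59. Psmd1, the large scaffold of the base (chr1:86064387-86139151), stood at 21.7 and 21.5 CPM in controls and at 65.0 to 115 (median 75.8) CPM in A3B pancreases (1.90 ± 0.27, edgeR adjusted p = 0.000789). The A3B pancreas of mouse 44, at 115 CPM, stood apart from the other 5, which lay between 65.0 and 80.5 CPM, and all 6 were above both controls. Psmd4, a ubiquitin receptor, stood at 49.8 and 44.8 CPM and 99.4 to 157 (median 132) CPM (1.46 ± 0.25, edgeR adjusted p = 0.00188). Psmd2, the other large base scaffold, rose by 1.59.

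In the lid, 4 of 8 genes rose and 1 fell, with a median of 0.80. Psmd11, a structural lid subunit (chr11:80428615-80473248), stood at 25.2 and 28.2 CPM in controls and at 65.1 to 93.7 (median 81.9) CPM in A3B pancreases (1.60 ± 0.23, edgeR adjusted p = 0.000893). Psmd3, another structural subunit, stood at 52.2 and 28.3 CPM and 73.2 to 144 (median 107) CPM (1.46 ± 0.34, edgeR adjusted p = 0.0085). The 2 controls of Psmd3 differed from each other by more than the lowest A3B sample differed from the higher control, and its call, like that of the lid subunit Psmd7 (1.02), is lost without control mouse 168. Psmd12 rose by 0.92. Psmd6 (chr14:14112174-14120984) was the lid gene that went the other way, at 165 and 97.7 CPM in controls and 58.3 to 81.5 (median 75.1) CPM in A3B pancreases (-0.86 ± 0.24, edgeR adjusted p = 0.0202 on the TMM scale, but 1.46 with counts scaled by their totals). All 6 A3B pancreases were below both controls for Psmd6, and the fall is not called without control mouse 45. Psmd14, the deubiquitinase of the lid, was not called (0.26).

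**Figure D2:**
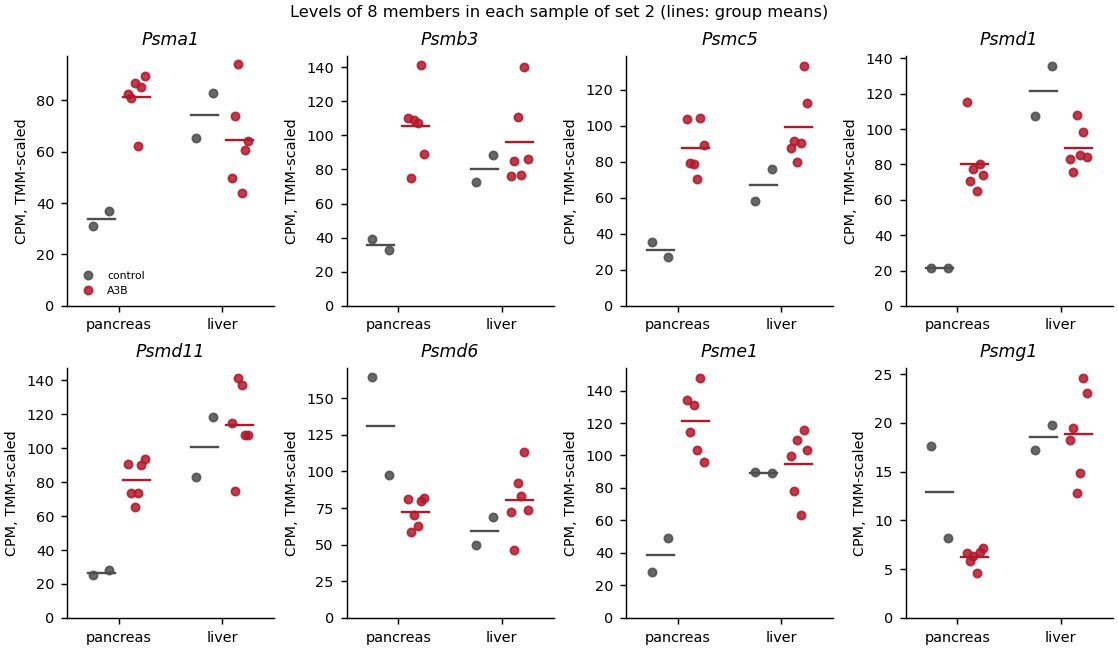
TMM-scaled CPM of 8 genes in every pancreas and liver of set 2, one point per mouse, with A3B and control mice side by side. In the pancreas the A3B points of Psma1, Psmb3, Psmc5, Psmd1, Psmd11 and Psme1 lie above both controls and those of Psmd6 and Psmg1 below both (these last 2 turn higher with counts scaled by their totals), whereas in the liver the groups overlap for 7 of the 8, Psmc5 being the exception.

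The chaperones that assemble the core had a median log2 fold change of -0.93 on the TMM scale, with 2 of the 4 lower and none higher, and their difference from the cap was not tested. By totals all 4 were called higher, with a median of 1.35, as were all 17 cap genes, but so were 70.4% of all genes tested, whose median was 2.29. Psmg3 (chr5:139823592-139826885), which pairs with Psmg4, stood at 12.5 and 12.9 CPM in control pancreases and at 5.65 to 6.71 (median 6.44) CPM in A3B pancreases (-1.03 ± 0.21, edgeR adjusted p = 0.0043 on the TMM scale, but 1.17 by totals). Psmg1, which pairs with Psmg2, stood at 17.6 and 8.18 CPM and 4.56 to 7.17 (median 6.52) CPM (-1.04 ± 0.30, edgeR adjusted p = 0.022 on the TMM scale, but 1.34 by totals). All A3B pancreases were below both controls for both genes, though the fall of Psmg1 is not called without control mouse 45. Psmg4 (-0.82, edgeR adjusted p = 0.0557) and Psmg2 (-0.39) were not called, and the median of the 4 was -0.48 with the trend on length removed. The reads of Psmg3 cannot be fully separated from Gm26938, an overlapping gene on the same strand.

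None of the 3 cap assembly chaperones was called, with a median of 0.39. Psmd10 stood at 11.9 and 13.2 CPM in controls and at 5.33 to 10.1 (median 7.04) CPM in A3B pancreases (-0.72 ± 0.27, edgeR adjusted p = 0.0673, but 1.46 by totals). Psmd5 stood at 22.4 and 17.1 CPM and 19.95 to 32.5 (median 27.0) CPM (0.45 ± 0.25, edgeR adjusted p = 0.184). The A3B pancreases were all below the controls for Psmd10 and overlapped with them for Psmd5. Psmd9 was 0.39.

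Among the activators 2 of 4 rose. Psme1 (chr14:55578123-55581529), which forms an interferon-inducible ring with Psme2, stood at 28.4 and 49.3 CPM in controls and at 95.8 to 148 (median 123) CPM in A3B pancreases (1.64 ± 0.30, edgeR adjusted p = 0.00261). Psme3, which forms a nuclear activator ring of its own, stood at 37.8 and 31.8 CPM and 49.2 to 75.2 (median 58.7) CPM (0.80 ± 0.23, edgeR adjusted p = 0.0247). The groups did not overlap for these 2 genes. Psme2 (0.41) and Psme4 (0.02), a single-chain activator, were not called, and Psmf1, an inhibitor of the core in vitro, rose by 0.70 (edgeR adjusted p = 0.0419). In all, the groups did not overlap for 23 genes above and 7 below the controls, where 25.1% and 18.9% of all genes tested were in those positions; of the cap genes 12 were above and 1 below, and of the core genes 6 were above and 2 below.

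Acinar transcripts make up a large share of the control pancreas libraries, and the calls changed with the scale. With counts scaled by their totals in place of TMM factors the median of all genes tested moved from 0.09 to 2.29, and 46 of the 47 genes were called higher and none lower, where 70.4% of all genes were higher and 1.1% lower. On that scale the median was 2.64 for the core and 3.29 for the cap. Relative to the median of all genes the cap thus stood 1.02 above on the TMM scale and 1.0 above by totals, and the core 0.27 and 0.36 above, but the core stood at -0.21 without control mouse 168 and 0.04 with no filter on low counts, where the cap stood at 0.78 and 0.80. Of the 17 genes that rose on the TMM scale, 10 were called whichever pancreas was left out (Psma1, Psmb3, Psmc1, Psmc4, Psmc5, Psmd1, Psmd2, Psmd4, Psmd11 and Psme1), and of the 3 that fell only Psmg3 was. The rises of Psme3 and Psmd12 were lost without control mouse 168 and in 1 and 3 other cases, and that of Psmf1 was kept in only 1 case of 8.

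Cell type markers moved in the same samples. Of 8 acinar genes 7 fell, with summed levels of 64354 to 172396 TPM in A3B pancreases against 228614 and 244587 TPM in controls. Of 5 macrophage genes 4 rose (1178 to 3540 TPM against 37.6 and 508 TPM), as did 4 of 5 fibroblast genes (944 to 1432 TPM against 38.0 and 168 TPM) and 3 of 5 ductal genes (1176 to 2933 TPM against 50.5 and 88.9 TPM). None of these marker genes was at 0 in every library. Other lists differed: all 5 B and plasma cell genes were negative (median -2.06), none called. Of 4 T cell genes 3 were negative, none called, and the leukocyte gene Ptprc was at -0.24. Of 4 neutrophil genes Csf3r rose and Ly6g fell (-5.15), and of 5 endocrine genes Ins1 fell (-1.79). The calls are on the TMM scale but the sums are TPM, a scale on which limma called 83.9% of all genes higher. In whole tissue, a change in the number of cells of a type and a change in RNA per cell cannot be told apart, and the part of these markers in the proteasome values was not tested.

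Promoter sequence was searched for letters of known regulators of proteasome genes, from 250 bases before to 50 bases after each RefSeq start (GRCm38.p6), on both strands. The letters TGANNNNGC, which cover the core of the antioxidant response element that Nfe2l1 and Nfe2l2 recognise, were found in 24 of the 42 promoters on record for 39 of the 47 genes (57.1%), against 41.3% of all 32851 promoters. They were in 9 of 12 core promoters (75%), 6 of 15 cap promoters (40%) and 9 of 15 of the others (60%). The letters CCAAT, the box bound by NF-Y, were in 14 of 42 (33.3%) against 37.4% of all promoters, with 6 of 12 in the core (50%) and 4 of 15 in the cap (26.7%). A match is a description of the sequence and not a bound site, and for the 15 genes with a promoter on record of the 17 that rose in the pancreas, TGANNNNGC was in 5 of 16 promoters (31.2%) and CCAAT in 6 (37.5%). Psmc4, Psmc5, Psmd2, Psmd11, Psme1 and Psmf1, all of which rose, held neither.

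To show the letters behind these counts, 1 window per motif is given for each gene that rose in the A3B pancreas and holds a match, read along the gene, with the matched letters in capitals and positions counted from the RefSeq start. Psmb3 holds TGANNNNGC 10 bases before its start, at chr11:97703416-97703440.
Psmb3: gttgacccTGAGAAAGCcagagccg
Psmb4 holds it in reverse, 17 bases after the start, at chr3:94886925-94886949.
Psmb4: tgacgctaGCGCTTTCAtttctgtc
Psmd1 holds it 224 bases before the RefSeq start, at chr1:86064387-86064411, which lies within the gene span given above.
Psmd1: gcgggtgaTGAGTGGGCctctcttt
Psmd12 holds it 28 bases before the start, at chr11:107479492-107479516.
Psmd12: tgagtggaTGAGCGGGCgacttccg
Psmc2 holds it 134 bases before one of its starts, at chr5:21786605-21786629.
Psmc2: tggagttgTGAGGGAGCggggtgaa
Psma1 holds CCAAT 98 bases before its start, at chr7:114276202-114276222.
Psma1: gcttcctgCCAATcccacgtt
Psmb3 holds CCAAT 43 bases before its start, at chr11:97703383-97703403.
Psmb3: cccgccagCCAATggggagga
Psmc1 holds CCAAT 175 bases before its start, at chr12:100110019-100110039.
Psmc1: atgtttaaCCAATccttgtac
Psmd4 holds CCAAT 20 bases after its start, at chr3:95042582-95042602.
Psmd4: gcaccaggCCAATcggaggtg
Psmc2 holds CCAAT 28 bases before the other of its starts, at chr5:21785239-21785259.
Psmc2: gcctcgcgCCAATgcgcgcgg
Psme3 holds CCAAT in reverse, 14 bases before its start, at chr11:101316191-101316211.
Psme3: tgccggcgATTGGctgtgacg
Of the genes that fell, Psmd6 and Psmg3 hold neither motif, while Psmg1 holds TGANNNNGC, 238 bases before its start at chr16:95991182-95991206.
Psmg1: atgttctcTGAATCCGCttgcagtc

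In the liver of the same set no proteasome gene rose and 2 fell, the activator Psme4 and the chaperone Psmg3, while 1.25% of the 17376 genes tested were called higher and 2.41% lower. The core and cap medians were 0.10 and 0.18, against 0.21 over all genes. Both medians were below 0 without control mouse 45 (-0.19 and -0.06), and the core median was -0.16 without A3B mouse 49. The edgeR test gave 1 gene higher and 2 lower of 47 at an unadjusted p under 0.05, where 13.1% and 9.88% of all genes were, and DESeq2 called 1 higher (Psme2b) and 2 lower, with 5.35% and 4.4% of all genes called. Psme4 (chr11:30771726-30880361) stood at 104 and 145 CPM in control livers and at 57.5, 43.7, 79.4, 52.6, 39.1 and 47.6 CPM in A3B mice 44, 48, 49, 125, 137 and 153 (-1.23 ± 0.29, edgeR adjusted p = 0.0487). Psmg3 stood at 11.2 and 13.8 CPM in controls and at 3.99, 4.73, 5.86, 5.65, 5.41 and 4.76 CPM in the same A3B mice (-1.30 ± 0.29, edgeR adjusted p = 0.0431). All 6 A3B livers were below both controls for both genes. With counts scaled by their totals the values were -0.73 (edgeR adjusted p = 0.202) for Psme4 and -0.85 (edgeR adjusted p = 0.131) for Psmg3, and both calls were lost when any one library was left out, other than A3B liver 48 or 49.

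The 6 base ATPases were all positive in the liver, from 0.17 for Psmc1 to 0.56 for Psmc5, and none was called. Psmc5 stood at 58.3 and 75.8 CPM in controls and at 79.6 to 133 (median 90.9) CPM in A3B livers, and Psmc6 at 49.0 and 66.6 CPM and 58.8 to 148 (median 74.3) CPM. The groups did not overlap for Psmc5 and overlapped for Psmc6. In the base and hinge, Psmd4 stood at 82.5 and 115 CPM in controls and at 120.4 to 247 (median 139.9) CPM in A3B livers (0.71 ± 0.36, edgeR adjusted p = 0.267), without overlap. Psmd1, which rose in the pancreas, stood at 108 and 136 CPM in controls and at 75.6 to 108 (median 84.8) CPM in A3B livers (-0.45 ± 0.24, edgeR adjusted p = 0.297). Of the 47 genes, 3 were above both controls in all A3B livers (Psmc5, Psmd4 and Psmb11) and 2 below, where 15.0% and 12.9% of all genes tested were in those positions.

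The lid genes with the smallest p were Psmd6 and Psmd3, in opposite directions and not called. Psmd6 stood at 49.6 and 68.8 CPM in control livers and at 46.4 to 113 (median 78.4) CPM in A3B livers (0.44 ± 0.34), and Psmd3 at 118 and 143 CPM and 50.6 to 125 (median 109.9) CPM (-0.39 ± 0.33). In the alpha ring Psma4 stood at 91.1 and 114 CPM and 51.2 to 109 (median 70.0) CPM, and Psma5 at 52.4 and 75.5 CPM and 41.2 to 227 (median 72.1) CPM. In the beta ring Psmb7 stood at 112 and 147 CPM and 55.2 to 121 (median 101) CPM, and Psmb3 at 72.6 and 88.4 CPM and 76.3 to 140.2 (median 85.4) CPM. The groups overlapped for all 6 of these genes. Among the chaperones Psmg2 stood at 8.78 and 11.8 CPM and 10.8 to 19.8 (median 13.8) CPM, Psmd5 at 31.5 and 38.2 CPM and 28.0 to 38.9 (median 32.0) CPM, and Psmd10 at 4.34 and 4.91 CPM and 2.76 to 10.8 (median 3.59) CPM. The activator Psme2 stood at 87.6 and 78.6 CPM and 59.7 to 153 (median 121) CPM, with overlap as in these chaperones. The A3B livers were uneven: the mean log2 TPM of the core was 7.89 in mouse 49 and 6.44 in mouse 48, against 6.63 and 6.74 in the controls. Hepatocyte genes summed to 36272 to 85019 TPM in A3B livers and 94983 and 143221 TPM in controls, none of the 6 measured was called, and their part in these values was not tested.

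Whether the log2 fold change of A3B against control differs from pancreas to liver was examined with an interaction term in one fit over the 16 libraries of set 2. It was higher in the pancreas for 9 of 47 genes and lower for none, where 6.87% of the 19927 genes tested were higher and 5.02% lower, and at an unadjusted p under 0.05 it was higher for 19 and lower for 1 (15.5% and 13.4% of all genes). The 9 included the base and hinge genes Psmd1 (2.52 ± 0.36, edgeR adjusted p = 0.00125) and Psmd2 (2.16 ± 0.53, edgeR adjusted p = 0.0184), the lid genes Psmd3 (2.01 ± 0.48, edgeR adjusted p = 0.0155) and Psmd11 (1.59 ± 0.36, edgeR adjusted p = 0.0135), and the ATPase Psmc1 (1.41 ± 0.44, edgeR adjusted p = 0.0483). In the core they were Psma1 (1.63 ± 0.38, edgeR adjusted p = 0.0147) and Psmb3 (1.47 ± 0.40, edgeR adjusted p = 0.0273), and among the activators Psme1 (1.72 ± 0.41, edgeR adjusted p = 0.0156) and Psme4 (1.41 ± 0.40, edgeR adjusted p = 0.0336). For Psme4 the log2 fold change was 0.02 in the pancreas, where it was not called, and -1.23 in the liver, where it fell. The median difference was 0.40 in the core and 0.92 in the cap, against 0.03 over all genes tested. By totals these were 2.01, 2.51 and 1.59. The core median was 0.22 without control liver 168 and 0.22 without control pancreas 168, where the median of all genes was 0.38 and thus above it.

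Livers and pancreases of 7 mice came from the same animals, and with the mouse number as a replicate block the count of genes with a higher log2 fold change in the pancreas was 6, Psmb3, Psmc1 and Psme4 being lost (5.67% of all genes were higher and 2.44% lower). Psmd1 was the one gene called whichever library was left out, and the count of higher genes fell to 1 without control liver 168 and to 2 without control pancreas 45, and rose to 11 without A3B liver 49.

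The lung was measured in set 1, where TPM values of 3 A3B and 3 control lungs were compared with limma on log2(TPM + 1), a scale that understates the change of low genes. Of the 45 proteasome genes tested (Psma8 and Psmb11 were under the minimum of a mean TPM of 1), 26 were lower and 2 higher in A3B lungs, where 20.8% of the 13651 genes tested were called lower and 16.1% higher. The core was lower in 11 of 14 genes, with a median of -0.41, the cap in 6 of 17 with 1 higher and a median of -0.21, and the core chaperones in 4 of 4 with a median of -0.86, against -0.06 over all genes. At an unadjusted p under 0.05, 29 genes were lower and 2 higher, against 27.8% and 21% of all genes. Values of single lungs are given in the order of control mice 87, 88 and 91 and of A3B mice 69, 70 and 74.

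All 14 core genes were negative in the lung. Psmb2 stood at 74.2, 72.2 and 71.1 TPM in controls and at 54.4, 53.7 and 52.8 TPM in A3B lungs (-0.43 ± 0.08, limma adjusted p = 0.00869). Psmb1 stood at 499.6, 441 and 536 TPM and 335, 324 and 356 TPM (-0.53 ± 0.11, limma adjusted p = 0.0108). In the alpha ring Psma4 stood at 36.9, 37.3 and 38.8 TPM and 28.3, 27.5 and 28.0 TPM (-0.42 ± 0.08, limma adjusted p = 0.00967). All 3 A3B lungs were below all 3 controls for these structural subunits. Psma5 stood at 25.9, 21.2 and 26.3 TPM and 16.6, 16.7 and 17.8 TPM (-0.49 ± 0.11, limma adjusted p = 0.0161), again without overlap. Of the core genes, Psma6, Psma7 and Psmb7 were not called.

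Of the cap, the ATPases Psmc3 and Psmc5 fell, the 3 base and hinge genes did not pass the test and the lid was divided. Psmc3 stood at 475, 464 and 497 TPM in controls and at 387, 385 and 381 TPM in A3B lungs (-0.31 ± 0.08, limma adjusted p = 0.0246). Psmc5 stood at 51.9, 53.1 and 54.9 TPM and 43.7, 41.4 and 43.8 TPM (-0.30 ± 0.08, limma adjusted p = 0.0261). Neither of these ATPases overlapped between the groups. Psmd14, the lid deubiquitinase, stood at 56.1, 51.2 and 49.1 TPM and 36.8, 32.5 and 36.2 TPM (-0.55 ± 0.10, limma adjusted p = 0.00798). Psmd13 stood at 11.9, 11.8 and 11.8 TPM and 9.42, 9.13 and 8.90 TPM (-0.34 ± 0.08, limma adjusted p = 0.0194). The lid gene Psmd11 was the one that rose, at 33.4, 35.9 and 30.3 TPM in controls and 44.5, 42.5 and 39.9 TPM in A3B lungs (0.34 ± 0.10, limma adjusted p = 0.0355), all 3 A3B lungs being above the controls. Psmd4 stood at 60.5, 64.3 and 64.4 TPM and 61.4, 59.0 and 55.7 TPM, and Psmd2 at 129.8, 154 and 119.7 TPM and 138, 131 and 121 TPM, with log2 fold changes of -0.10 and -0.04.

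The core assembly chaperones had the lowest median of all roles in the lung. Psmg3 stood at 10.4, 11.4 and 13.4 TPM in controls and at 6.28, 5.90 and 5.64 TPM in A3B lungs (-0.87 ± 0.12, limma adjusted p = 0.00443). Psmg2 stood at 75.5, 82.1 and 92.5 TPM and 42.2, 43.3 and 51.6 TPM (-0.85 ± 0.12, limma adjusted p = 0.00503). The highest A3B lung was under the lowest control for both. Psmg4 (-0.95) and Psmg1 (-0.43) fell as well. Of the cap chaperones, Psmd10 stood at 5.13, 4.52 and 5.61 TPM and 2.75, 2.93 and 3.33 TPM (-0.60 ± 0.11, limma adjusted p = 0.00931), and Psmd5 at 48.4, 55.3 and 49.6 TPM and 41.6, 38.6 and 42.8 TPM (-0.31 ± 0.09, limma adjusted p = 0.0406). The groups did not overlap for either gene.

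The activators went in different directions. Psme2 stood at 1126, 1108 and 1328 TPM in control lungs and at 597, 695 and 786 TPM in A3B lungs (-0.78 ± 0.14, limma adjusted p = 0.00782). Its partner Psme1 stood at 422, 419.9 and 469 TPM and 311, 323 and 337 TPM (-0.43 ± 0.09, limma adjusted p = 0.0134). Psme4 rose, from 26.7, 30.5 and 24.5 TPM to 36.6, 34.9 and 34.2 TPM (0.36 ± 0.11, limma adjusted p = 0.0354). The groups did not overlap for any of the 3. Over all 45 genes, the A3B lungs were all below the controls for 31 and all above for 2, where 30.6% and 23.3% of all genes tested were in those positions.

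The lung values varied with transcript length. Across the 12946 genes with a known transcript length, Spearman's rho between the log2 fold change and the length was 0.44, and among the 45 proteasome genes it was 0.56 (genes of one fit are not independent). The core transcripts are short, with a median of 1026 bases (772 to 2024), and the cap transcripts longer, with a median of 1513 bases (1265 to 3054). Other genes with lengths between the quartiles of the core had a median log2 fold change of -0.35 (973 genes) and those with lengths between the quartiles of the cap had one of -0.19 (1776 genes), against -0.41 for the core and -0.21 for the cap. When the trend on length was removed from each library, an alternative chosen after seeing the data, 6 of the 28 calls were kept, with backgrounds of 14.2% higher and 13.3% lower. They were the lower Psmb1 (-0.38), Psmd10 (-0.36), Psme2 (-0.37), Psmg2 (-0.50) and Psmg3 (-0.46) and the higher Psmd11 (0.46), and the core and cap medians became -0.04 and -0.00.

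**Figure D3:**
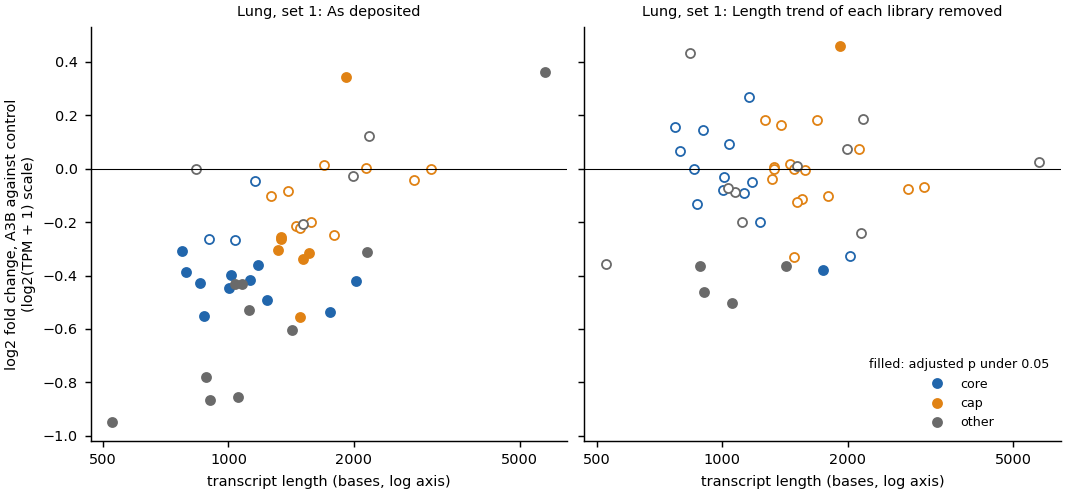
Log2 fold change of A3B over control lungs against transcript length in bases (log axis) for the proteasome genes, as deposited and after the trend on length was removed from each library. As deposited the short core genes lie lower than the long cap genes, and after removal the core and cap medians are -0.04 and -0.00. Of the genes called lower, Psmb3, Psmb6 and Psmd6 are then slightly above 0. Some genes that were not called also turn positive, such as Psmb7 (0.27) and Psmd4 (0.18).

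Some of the lung calls also rest on single animals. Of the 26 lower calls, 9 were kept whichever lung was left out (Psma4, Psmb1, Psmb2, Psmd10, Psmd14, Psme2, Psmg1, Psmg2 and Psmg3), and of the 2 higher calls none. The count of lower genes was 9 without A3B lung 70, 11 without A3B lung 69, 15 without A3B lung 74, 16 without control lung 87 and 16 without control lung 91. Alveolar genes summed to 10330 to 11555 TPM in A3B lungs and 10237 to 11623 TPM in controls, of which Sftpc fell (-0.33). Macrophage genes summed to 921 to 960 TPM against 1179 to 1275 TPM, with Cd14 higher and Lyz2 lower, and fibroblast genes to 192 to 308 TPM against 252 to 561 TPM. Their part in the proteasome values was not tested.

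In the livers of set 1 none of the 45 genes tested was called, with 6.07% of 11507 genes called higher and 1.86% lower. At an unadjusted p under 0.05 in limma, 2 were higher (Psmc6 and Psme3) and 1 lower (Psmg3), against 24.5% and 8.12% of all genes, and no call was made under any alternative. All 17 cap genes were positive, with a median of 0.39, and 11 of 14 core genes were, with a median of 0.16, but the median of all genes was 0.39 too. These values rest on single livers: 13 of 17 cap genes were positive without A3B mouse 23 and 13 without A3B mouse 28, as were 13 with the trend on length removed. The core median ran from -0.02 without A3B mouse 28 to 0.52 without A3B mouse 70 (0.04 without A3B mouse 23 and 0.03 without control mouse 11), and the cap median from 0.19 without A3B mouse 23 to 0.63 without A3B mouse 70. Values are in the order of control mice 11, 91 and 92 and of A3B mice 23, 28 and 70. Psmc6, an ATPase, stood at 10.3, 11.0 and 8.05 TPM in controls and at 20.3, 27.5 and 15.0 TPM in A3B livers (0.99 ± 0.32, limma adjusted p = 0.0879). Psme3 stood at 8.04, 4.95 and 5.10 TPM and 11.7, 13.6 and 8.80 TPM (0.82 ± 0.32, limma adjusted p = 0.123). In both, all A3B livers were above the controls, mouse 70 being the lowest. Psmg3 stood at 13.2, 20.9 and 18.9 TPM and 11.5, 11.1 and 4.97 TPM (-0.92 ± 0.39, limma adjusted p = 0.146), all A3B livers lying below the controls. Psme4 stood at 55.5, 38.5 and 37.0 TPM and 34.0, 32.7 and 36.1 TPM (-0.32 ± 0.29, limma adjusted p = 0.471), also without overlap.

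The other named genes of these livers were not called either. In the lid, Psmd12 stood at 56.5, 53.2 and 46.3 TPM in controls and 89.4, 81.7 and 67.7 TPM in A3B livers, and Psmd6 at 95.0, 137 and 108 TPM and 199, 152 and 137 TPM. In the alpha ring, Psma5 stood at 23.6, 34.4 and 26.2 TPM and 52.2, 77.5 and 27.0 TPM, and Psma6 at 159.9, 268 and 212 TPM and 311, 397 and 208 TPM. In both alpha genes A3B mouse 70 lay among the controls. In the beta ring, Psmb2 stood at 72.6, 103 and 93.3 TPM and 108, 127 and 67.4 TPM, and Psmb3 at 388, 632 and 562 TPM and 804, 709 and 344 TPM. In the base, Psmc3 stood at 450.1, 543 and 575 TPM and 837, 801 and 515 TPM, Psmd4 at 67.1, 78.3 and 81.7 TPM and 192, 98.9 and 75.4 TPM, and Psmd1 at 211, 160.0 and 161 TPM and 253, 245 and 153 TPM. The groups overlapped in all of these but the lid genes. Among the chaperones, Psmg2 stood at 55.8, 81.9 and 69.8 TPM and 109.7, 66.6 and 91.6 TPM, Psmd9 at 178, 227 and 198 TPM and 434, 217 and 213 TPM, and Psmd10 at 3.40, 4.86 and 3.46 TPM and 4.31, 11.3 and 2.84 TPM, with overlap in all 3.

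The groups did not overlap for 5 genes above and 2 below the controls in these livers, against 28.5% and 10.3% of all genes tested. The mean log2 TPM over the core was 6.56 in A3B mouse 70 (10 days), under all controls (6.64 to 7.25), and 7.35 and 7.66 in mice 23 and 28 (14 days), above all controls. Duration and animal cannot be told apart. Hepatocyte genes summed to 3155 to 6209 TPM in A3B livers and 6848 to 8638 TPM in controls.

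The log2 fold change of A3B against control was compared between liver and lung of set 1 in one fit, and it was higher in the liver for the ATPase Psmc6 (1.22 ± 0.32, limma adjusted p = 0.0366) and the chaperone Psmg2 (1.21 ± 0.31, limma adjusted p = 0.0354) and lower for no gene, where 8.81% of 13477 genes were higher and 1.94% lower. Psmc6 was called in neither tissue alone. For Psmg2 the log2 fold change was 0.35 in the liver, where it was not called, and -0.85 in the lung, where it fell. At an unadjusted p under 0.05, 11 were higher and 1 lower, against 23.9% and 6% of all genes. The count was 0 with quantile normalization (3.22% of all genes higher and 3.02% lower) and 0 with the trend on length removed (4.44% and 5.15%), each with Psme4 called lower. It ranged from 0 to 21 when single libraries were left out. The 21 came without A3B liver 70, a fit for which no share over all genes is given here, so it is not read as particular to these genes.

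Core and cap were next set against each other within each sample, as the mean log2 TPM of the 17 cap genes minus that of the 14 core genes. In control pancreases the cap stood -1.54 and -1.44 from the core, and in A3B pancreases from -1.16 to -0.69, with a mean of -0.91 ± 0.16 (SD, n = 6) against -1.49 ± 0.07 (SD, n = 2). The cap thus lay nearer the core in every A3B pancreas. Among other genes the same measure, those as long as the cap minus those as long as the core relative to the control mean, was 0.28 to 0.53 in A3B pancreases and -0.11 and 0.11 in controls, over 2101 and 1217 genes. The cap minus core difference of the median log2 fold changes was 0.75 on the TMM scale and 0.50 with the trend on length removed. In the livers of set 2 the A3B samples ran from -1.03 to -0.39 and the controls were -0.84 and -0.76, so that the groups overlapped.

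**Figure D4:**
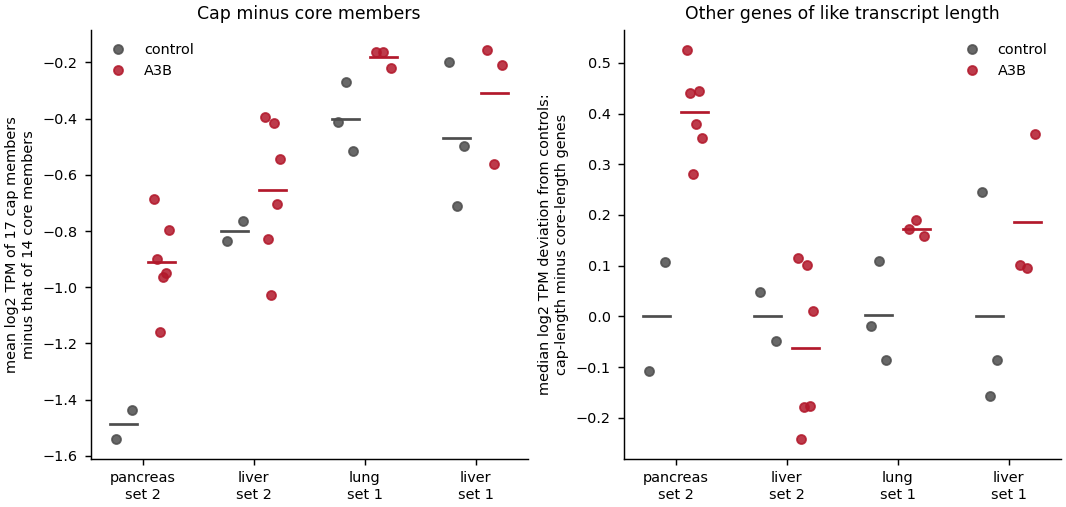
Left, mean log2 TPM of the 17 cap genes minus that of the 14 core genes in each sample of the 4 comparisons. Right, for other genes of like transcript length, the median log2 TPM relative to the control mean of cap-length genes minus that of core-length genes, in which the A3B pancreases (0.28 to 0.53) and A3B lungs (0.16 to 0.19) lie above their controls just as they do on the left.

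In the lungs the cap minus core value was -0.22 to -0.16 in A3B and -0.52 to -0.27 in control mice, again without overlap, and among other genes of like length it was 0.16 to 0.19 against -0.09 to 0.11. The difference of the medians in the lung was 0.20, and 0.04 with the trend on length removed. In the livers of set 1 the A3B values were -0.15, -0.56 and -0.21 for mice 23, 28 and 70 and the control values -0.20, -0.71 and -0.50 for mice 11, 91 and 92, which overlap. With the pancreas trend on length removed, 16 of the 20 calls were kept, Psmd12, Psme3, Psmf1 and Psmg1 were lost, and Psma5 (0.81) and Psmb2 (1.05) were added, with 13.5% of all genes called higher and 16.8% lower. The core then had 5 genes higher and the cap 10 higher and 1 lower, with medians of 0.53 and 1.03.

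Psmg3 and Psme4 were the genes called in the liver of set 2, and their values can be set side by side across tissues, some of which share animals. Psmg3 had a log2 fold change of -1.03 in the pancreas (1.17 by totals), -1.30 in the liver of set 2, -0.87 in the lung and -0.92 in the liver of set 1, where limma gave an adjusted p of 0.146. With the trend on length removed these were -0.68 (edgeR adjusted p = 0.033), -1.45 (0.022), -0.46 (limma adjusted p = 0.022) and -0.94 (0.081). The Psmg3 groups did not overlap in any of the 4 comparisons. Psme4 was 0.02 in the pancreas (edgeR adjusted p = 0.964), -1.23 in the liver of set 2, -0.32 in the liver of set 1 and 0.36 in the lung, and after removal of the trend -0.43 (edgeR adjusted p = 0.25), -1.35 (0.028), -1.06 (limma adjusted p = 0.052) and 0.03 (0.83). Psme4 thus fell in 1 liver comparison, was not called in the other and rose in the lung only before the trend on length was removed.

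**Figure D5:**
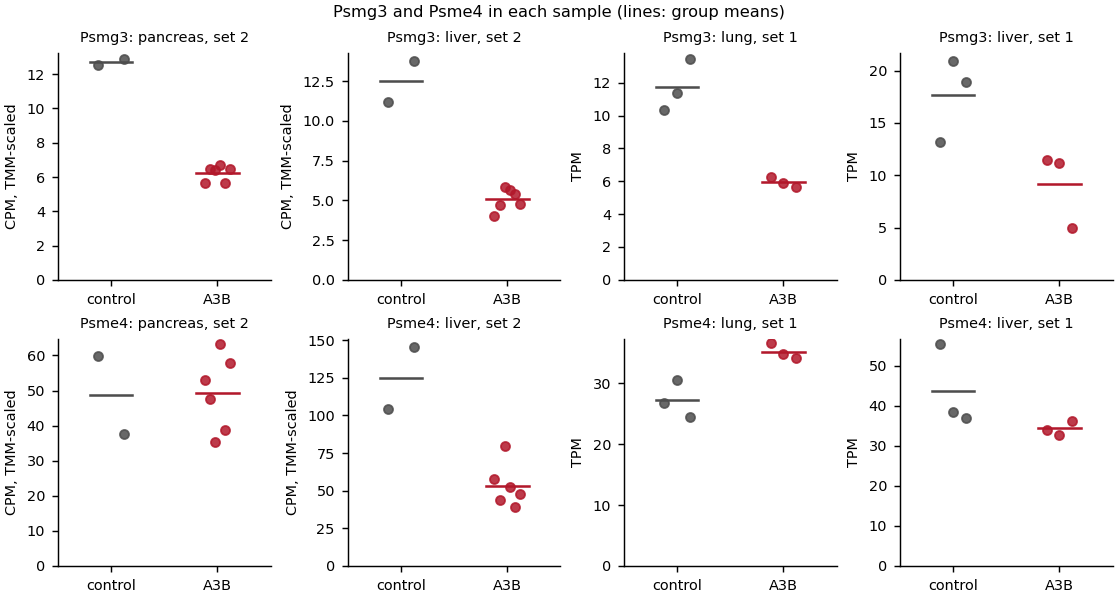
Levels of Psmg3 and Psme4 in each sample of the 4 comparisons (TMM-scaled CPM in set 2, TPM in set 1, which are not comparable with each other), with lines at the group means. Psmg3 lies below the controls in every A3B sample of all 4 (the pancreas fall turns to a rise with counts scaled by their totals), and Psme4 does so in the livers alone.

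The partners of the proteasome were described from a list of 35 genes for the immunoproteasome, ubiquitin, assembly factors, shuttles and transcription factors, of which 34 were tested in the pancreas. There 15 rose and 3 fell, with a median of 0.66, where 17% of all genes tested were called higher and 14.9% lower. Zfand2a, a stress-induced proteasome-associated protein, stood at 11.4 and 12.1 CPM in controls and 47.4 to 73.0 CPM in A3B pancreases (2.28 ± 0.26, edgeR adjusted p = 0.00031). Zfand5, which binds ubiquitin and the proteasome, stood at 18.5 and 22.9 CPM and 56.6 to 101 CPM (1.86 ± 0.26, edgeR adjusted p = 0.000789). Usp14, the deubiquitinase that docks on the base, stood at 9.64 and 11.7 CPM and 27.7 to 42.0 CPM (1.60 ± 0.23, edgeR adjusted p = 0.000888). For these 3 the lowest A3B pancreas was above the highest control. The transcription factor Nfe2l2 stood at 30.1 and 39.8 CPM and 78.9 to 126 CPM (1.58 ± 0.26, edgeR adjusted p = 0.0015). Nfe2l1 (0.98), its processing protease Ddi2 (1.02), the ubiquitin receptor Adrm1 (1.35) and the segregase Vcp (1.06) also rose. With the trend on length removed, Nfe2l1 (0.62, edgeR adjusted p = 0.0851), Ddi2 (0.64, edgeR adjusted p = 0.0520) and Vcp (0.71, edgeR adjusted p = 0.152) were not called, and the others named here were.

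Among the partners that fell in the pancreas on the TMM scale, Rps27a, a fusion of ubiquitin and a ribosomal protein, stood at 7246 and 2877 CPM in controls and 501 to 1199 CPM in A3B pancreases (-2.40 ± 0.41, edgeR adjusted p = 0.00188). The immunoproteasome subunit Psmb10 stood at 1577 and 331 CPM and 65.1 to 90.0 CPM (-3.55 ± 0.41, edgeR adjusted p = 0.000316), but 99.5% and 95.2% of its counts in the controls lay on transcripts that are not annotated as protein-coding, against 45.6% to 69.7% in the A3B pancreases. With protein-coding transcripts alone, an alternative chosen after seeing the data, Psmb10 was higher by 1.48 (edgeR adjusted p = 0.0118). Psmb8, its companion in the immunoproteasome, rose by 1.72.

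In the liver of set 2 the chaperone Pomp, which matures the core, was the one partner called of 34 (1.25% of all genes tested were called higher and 2.41% lower), at 86.2 and 109 CPM in controls and 16.6 to 43.3 CPM in A3B livers (-1.83 ± 0.36, edgeR adjusted p = 0.0285). Among the next by p were Zfand5 (1.33), Ufd1 (0.84), Zfand2a (1.34) and Nfe2l2 (0.66), and no one of them passed the test. In the lung 4 of 31 partners rose (Ddi2, Ubqln2, Uba6 and Nfe2l2) and 5 fell (Psmb8, Psmb9, Psmb10, Pomp and Sem1), with a median of 0.10, where 16.1% and 20.8% of all genes tested were called higher and lower. With the trend on length removed, Ddi2 (0.50), Nfe2l2 (0.49) and Uba6 (0.36) remained called and the other 6 were lost. Sem1, the smallest cap subunit, has a symbol outside the rule for the 47 genes, which is why it stands among the partners.

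Levels of different genes were compared in TPM, which accounts for length, within set 2. In the A3B pancreases the highest mean levels were those of Psma7 (415 ± 81 TPM, SD, n = 6), Psmb4 (374 ± 54 TPM) and Psmb6 (354 ± 46 TPM), whose ranges overlap, followed by Psmb3 (274 ± 40 TPM) and Psma5 (265 ± 54 TPM), which do not differ beyond their spread. The lowest were Psmb11 (0.26 TPM) and Psma8 (0.52 TPM), and then Psmc3ip (4.07 TPM), Psme2b (5.74 TPM), Psmd10 (9.69 TPM), Psmg1 (11.5 TPM), Psmg3 (13.5 TPM) and Psme4 (14.7 TPM). In control livers Psmb6 (205 and 211 TPM) and Psmb4 (177.5 and 177.6 TPM) were the highest. The summed core level was 394 and 695 TPM in control pancreases and 2611 to 3637 TPM in A3B pancreases, and the cap 176 and 313 TPM against 1878 to 2085 TPM, on a scale in which acinar transcripts take a large share of the control libraries.

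The germ-cell alpha subunit Psma8 and the thymus beta subunit Psmb11 were near the limit of detection. Psma8 had 0 and 6 estimated counts in the control pancreases and 19 to 65 in A3B pancreases, and Psmb11 had 11 to 65 counts across the libraries of set 2, so no fold is given for either. Psme2b had 42 to 1074 counts in A3B livers and 62 and 41 in controls, which overlap. Its reads can be shared with Psme2 and with Gm12185, which overlaps it on the same strand. The same holds for Psma2 with AW209491 and for Psmd1 with Gm21972. Over the set 2 libraries, 10.3% of the Psma3 counts lay on protein-coding transcripts, and with those alone Psma3 was lower by 1.80 in the A3B pancreas, so that its value rests on which transcripts are counted.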

How the data were processed

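RNA was sequenced from 28 mouse samples, 16 in set 2 (liver and pancreas) and 12 in set 1 (liver and lung). For set 2 the authors deposited estimated counts and TPM per transcript from kallisto, a pseudo-aligner, run on stranded paired-end libraries; both were summed here per gene symbol. For set 1 the authors deposited TPM per gene, derived from reads aligned with STAR to mm10, under headers that name de-duplicated alignments. From that set 4 rows whose gene name occurred more than once were dropped. The submitters' processing notes name the builds GRCm38 and mm10.

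Groups were taken from the sample titles. Set 2 counts were rounded, filtered with edgeR's filterByExpr, scaled by TMM and tested with the quasi-likelihood test of edgeR 4.0.16 (R 4.3.3) within each tissue, and the tissue difference as an interaction over both. Set 1 was tested with limma 3.58.1 on log2(TPM + 1) for genes with a mean TPM of at least 1. P-values were adjusted by Benjamini-Hochberg over all genes tested, with a threshold of 0.05. Alternatives were DESeq2 1.42.0, scaling by totals, no filter, limma on set 2 TPM, a pseudocount of 0.1, quantile normalization, one fit over both tissues, leaving out each library in turn, a replicate block, and, added after seeing the data, protein-coding transcripts alone and a loess trend on transcript length (span 0.5, length weighted by TPM). The fits were tested on simulated data.

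The 47 genes and the partner and marker lists were chosen with earlier results of these data known. Values are given, per comparison, for the 2 genes with the smallest p in each role and for calls against the majority of a role. For most genes of set 2 the A3B values are the lowest, the highest and the median, and not those of every sample. Liver and pancreas of one mouse number come from the same animal. The correlation of their deviations from the group means was -0.0044 to 0.28 in 5 A3B mice, 3 of them over 0.1. With 2 controls per tissue the deviations mirror each other, so the 0.0075 of the controls is a single value. Different A3B mouse numbers gave -0.21 (liver 48, pancreas 44) to 0.30 (liver 49, pancreas 53), so that the highest value was not from a same-number pair. The p-values measure the spread between mice. Marker genes and promoters were matched by symbol, with 39 of 47 genes found among the promoters. Psma8, Psmb1, Psmb2, Psmb7, Psmc3, Psmd3, Psmd7 and Psmg2 were not found. Some partner genes are not reported here by name.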

Additional observations from a re-analysis of the deposited data

Results flagged for a closer look

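In groups of 6 A3B mice, 45 groups of values were tested for a single distant sample and 2 had one, where chance gives about 1 in 20. For Psma1 in the A3B pancreases, mouse 125 at 62.3 CPM lay under the other 5, which ran from 81.1 to 89.4 CPM, and its gap to the nearest was 0.693 of the whole range. For Psmd1, mouse 44 at 115 CPM lay above the other 5 (65.0 to 80.5 CPM), with a gap of 0.690 of the range. Both genes were called higher without these mice.

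The log2 fold change of A3B against control was higher in pancreas than in liver by the interaction test for 9 genes. The difference of log2 fold changes was 2.52 for Psmd1, 2.16 for Psmd2, 2.01 for Psmd3, 1.72 for Psme1, 1.63 for Psma1, 1.59 for Psmd11, 1.47 for Psmb3, 1.41 for Psme4 and 1.41 for Psmc1. The log2 fold change of Psme4 was 0.02 for the pancreas and -1.23 for the liver. In set 1 the log2 fold change was higher in liver than in lung for Psmc6 (by 1.22) and Psmg2 (by 1.21), Psmg2 being at 0.35 in the liver and -0.85 in the lung.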

How the results depend on the processing

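In the pancreas scaling by totals gave 46 genes higher and 0 lower (70.4% of all genes higher) and limma on log2(TPM + 1) gave 45 and 0 (83.9%), against 17 and 3, and protein-coding transcripts alone gave 15 higher and 7 lower (17.4% and 16.1% of all genes). Psmd6, Psmg1, Psmg3 and Psmd10 turned to 1.46, 1.34, 1.17 and 1.46 with totals and to 1.44, 1.19, 1.11 and 1.27 with limma. The cap minus core difference of 0.75 was 0.58 with limma on TPM and 0.50 with the trend on length removed. In the liver of set 2, DESeq2 called 1 gene higher (5.35% of all genes). Genes lower numbered 0 with totals (1.39% of all genes), without a filter on low counts (1.53%) and with limma on TPM (1.57%). With protein-coding transcripts alone 1 was lower (2.31%). In the lung, removing the trend on length left 1 higher and 5 lower and a cap minus core difference of 0.040. Of the genes called lower before, Psmb3, Psmb6 and Psmd6 then stood at 0.16, 0.067 and 0.0059. The pancreas against liver count of 9 (6.87% of all genes) was 35 with totals (39.4%) and 37 with limma on TPM (56.6%). It was 5 without A3B pancreases 44 and 137 (3.5% of all genes), whose genotype tags conflict. With the replicate block it was 6 (5.67%), which lost Psmb3, Psmc1 and Psme4 and changed no call to the opposite direction. DESeq2 added 1 lower (7.2% of all genes). The liver against lung count was 0 with quantile normalization and 0 with the trend on length removed, each with 1 lower (Psme4). Other than the construction of each alternative, the cause was not tested.

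Leaving out each library gave 13 to 17 higher, 1 to 4 lower and a cap minus core difference of 0.73 to 0.995 in the pancreas. In the liver of set 2 it gave 0 to 0 higher, 0 to 2 lower and -0.05 to 0.26, and in the lung 0 to 2 higher, 9 to 23 lower and 0.17 to 0.22. In the liver of set 1 it gave 0 higher, 0 lower and 0.11 to 0.37. The pancreas against liver count ran from 1 to 11 higher and 0 to 1 lower, and the liver against lung count from 0 to 21 higher with 0 lower. No share over all genes is given for the fits with a library left out, so these counts cannot be set beside one. Where 1 control was left, it was assumed to vary like the A3B samples. Each control group of set 2 has 2 mice, and the depth of set 1 is unknown. Liver and lung of set 1 share only 1 mouse per group, so no paired fit was made there.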
